A study of Mus musculus with 6 samples.

Results

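Collagens are the main structural proteins of the aortic root, and 35 genes for collagen chains other than the cartilage types were measured here in klotho-deficient and wild-type mice. They were taken by name from the array annotation: every probe set with a single gene symbol of the form Col, a number, a and a number, without Col2a1, Col9a1 to Col9a3, Col10a1, Col11a1 and Col11a2, and with the probe set of highest mean log2 signal standing for its gene. The 35 genes, of 18193 genes on the array, comprised 8 fibrillar chains, 6 basement membrane (type IV) chains, 6 fibril-associated chains (FACIT) and 15 others. Signals came from 6 Affymetrix arrays, each of Trizol-extracted and NuGEN-amplified RNA from 3 pooled aortic roots. The klotho-deficient group, homozygous for the mutant allele of the klotho gene, and the group homozygous for the wild-type allele had 3 arrays each, so p-values measure the spread between pools and not between single mice. Col6a6, Col21a1 and Col28a1 were not analysed here. All mice were C57BL/6J albino and 6.0 to 6.5 weeks old. The root was dissected by hand as 1 piece with valve leaflets, annulus and some ascending aorta, so a signal is an average over these tissues, and fewer cells of a type cannot be told apart from less RNA per cell.

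Collagen chains wind around each other in a helix. Fibrillar types I, III and V form the load-bearing fibres of the valve fibrosa and the arterial wall, and FACIT chains sit on the fibre surface. Type IV builds the sheet-like basement membrane under endothelium and around smooth muscle cells, type VI forms beaded filaments beside cells, and type VIII forms networks in vessel walls. Mice without klotho, the co-receptor of the phosphate hormone FGF23, are studied as a model of early ageing and of calcification in soft tissue, where collagen is the scaffold on which mineral is laid down.

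The arrays were not alike in ways that touch these genes. Gapdh control probe sets, whose 3'-to-5' ratio is a usual gauge of intact RNA, gave 7.18 for wild-type replicate 3 and 3.23 to 4.08 for the others. The highest signal was 75200 on klotho-deficient replicate 3 and 98097 to 131885 on the others. All 3 measured Y-linked genes were at background on klotho-deficient replicates 2 and 3 and above it on the other 4 arrays. Among markers of the cells a root can hold, the summed fibroblast and valve interstitial signal (7 of 7 genes above background) was 203146 to 257286 in klotho-deficient and 220815 to 241974 in wild-type roots, and that of smooth muscle (6 of 6) was 130925 to 182370 and 148828 to 163138. Defining markers of both main collagen-making cell types of the labelled tissue were thus present, and 0 genes of either list passed the test.

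None of the 35 collagen genes differed between genotypes in limma after adjustment over all genes (0 higher and 0 lower), and 0% of the 18193 genes did. At an unadjusted p under 0.05 there were 0 of the 35, where 6.41% of all genes fell under that level. Of the 35, 29 had a mean log2 signal over the 6 arrays above the brightest Bacillus spike-in control on the array (161.8), a level called background here because those probes have no mouse target. Among those 29, klotho-deficient and wild-type arrays failed to overlap in 0 genes in the higher direction (6.95% of all genes above background) and in 1, Col14a1, in the lower direction (7.86%). The median log2 difference, klotho-deficient minus wild type, was -0.09 over all 35 and -0.09 over the 29, with 10 of the 29 higher and 19 lower, beside 0.00 over all genes. The median over the 29 was 0.03 without klotho-deficient replicate 2, 0.02 without wild-type replicate 2 and -0.17 without wild-type replicate 3, so its sign rests on single arrays. Differences among the 29 ran from -0.55 to 0.26, and 2 of them were larger than 0.5 in size. Their median standard error was 0.305, beside 0.239 for all genes above background. Of the 20 genes with over 1 probe set above background, 14 had probe sets of a single sign and 6 (Col1a1, Col1a2, Col4a5, Col5a2, Col5a3 and Col12a1) did not.

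**Figure D1:**
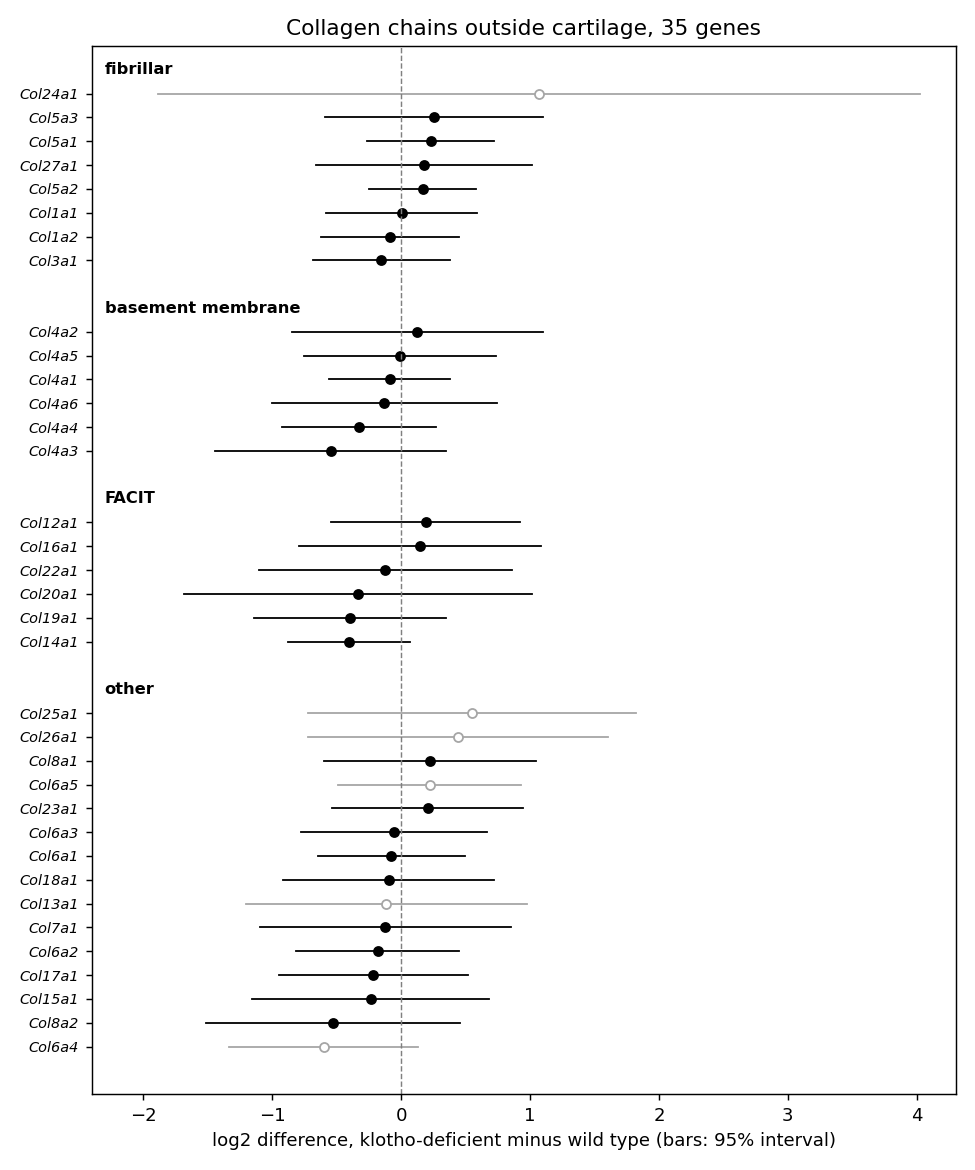
Log2 difference in signal (klotho-deficient minus wild type, horizontal axis) for 35 collagen genes by class, with the 95% interval from limma; open grey points are the 6 genes whose mean log2 signal over the 6 arrays is below background. Every interval includes 0, and the 29 filled points lie between -0.55 and 0.26.

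The fibrillar chains of types I and III, which make up most of the collagen of valve and artery, had like signals in both genotypes. Col1a1, the chain present in excess in type I collagen, measured 21865, 15661 and 19974 on klotho-deficient replicates 1 to 3 and 22001, 20768 and 14848 on the wild-type ones. The lowest arrays were klotho-deficient replicate 2 and wild-type replicate 3, and the groups overlapped throughout. Its means were 19170 ± 3180 and 19210 ± 3820 (SD, n = 3), a log2 difference of 0.00 ± 0.24 (SE) with a 95% interval of -0.58 to 0.59. Its other probe set gave -0.03.

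Col1a2, the partner chain of type I, measured 46027, 42891 and 31798 in klotho-deficient roots and 48440, 37512 and 41332 in wild type. Col3a1, the type III chain of extensible tissue such as arterial wall, measured 57159, 53196 and 37685 against 56997, 52063 and 53050. For both genes klotho-deficient replicate 3 was the lowest of the 6 arrays and the remaining arrays overlapped. The differences were -0.09 ± 0.22 for Col1a2 (interval -0.62 to 0.45) and -0.15 ± 0.22 for Col3a1 (-0.68 to 0.38), and without that array they were 0.07 and 0.03. Col1a2 also changed sign without wild-type replicate 1 (0.01). In the second probe set of each gene that array was not the lowest: the Col1a2 one read 24820 there against 24420 and 21038 on the other klotho-deficient arrays, and the Col3a1 one 10789 against 10019 and 11959. Those probe sets gave differences of 0.07 and -0.06. The remaining, much dimmer Col1a2 probe set was again lowest on klotho-deficient replicate 3, at 525 against 886 to 1347 on the others. The part of the low top signals of that array in these values was not tested.

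The bases just before the RefSeq start sites (GRCm38.p6) of Col1a2 and Col3a1 are shown as a description, apart from their array values. Capitals are for matches on either strand to CCAAT, to TATAAA or to the GC box GGGCGG.
Col1a2, chr6:4505368-4505617, plus strand: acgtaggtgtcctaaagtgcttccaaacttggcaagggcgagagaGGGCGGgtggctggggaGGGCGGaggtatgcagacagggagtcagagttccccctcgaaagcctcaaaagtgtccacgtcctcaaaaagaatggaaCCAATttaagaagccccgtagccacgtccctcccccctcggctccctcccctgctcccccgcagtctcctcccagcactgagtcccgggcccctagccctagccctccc
Col3a1, chr1:45311288-45311537, plus strand: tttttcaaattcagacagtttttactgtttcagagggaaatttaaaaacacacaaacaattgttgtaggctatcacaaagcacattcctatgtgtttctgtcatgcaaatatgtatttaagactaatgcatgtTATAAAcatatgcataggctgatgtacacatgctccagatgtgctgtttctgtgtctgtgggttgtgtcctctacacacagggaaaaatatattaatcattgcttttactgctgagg
The Col1a2 stretch held GGGCGG and CCAAT and the Col3a1 stretch held TATAAA, so these letters are not shared between them. Start-site windows were found for 28 of the 35 genes, in 30 windows, and not for Col1a1, Col4a3, Col5a2, Col12a1, Col14a1, Col22a1 and Col26a1. In the 250 bases before the start, GGGCGG or its reverse complement CCGCCC was in 18 of the 30 windows and in 32.7% of 32851 windows of all genes. CCAAT or ATTGG was in 11 (36.7%, beside 33.8%), and TATAAA or TTTATA in 3 (beside 12.4%). The 3 motifs share no letters of a match in the stretches shown, and a match is a description of the letters only.

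Type V chains, which control the diameter of type I fibres, were measured by Col5a1, Col5a2 and Col5a3. Col5a1 was 9630, 7284 and 8477 in klotho-deficient roots and 7865, 7621 and 6140 in wild type, with klotho-deficient replicates 1 and 3 above all wild-type arrays. The difference was 0.23 ± 0.20 (95% interval -0.26 to 0.72, adjusted p = 0.862), and its other probe sets gave 0.14 and 0.105. Col5a2 was 9781, 11500.2 and 10688 against 9739, 10034 and 8698, a difference of 0.17 ± 0.17. Its groups overlapped only because klotho-deficient replicate 1 was below wild-type replicate 2, but the second probe set gave -0.18, so its probe sets disagree. Col5a3 also had probe sets of opposite sign, 0.26 and -0.25, at signals of 340 to 790 for the brighter one.

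The remaining fibrillar genes were dimmer. Col27a1, which is also made by cartilage, measured 1137, 2252 and 1819 against 1612, 1880.2 and 1063, and its groups overlapped. Col24a1, a fibrillar chain described in bone, was below background on every array. Over the fibrillar class 5 of the 7 genes above background were higher and 2 lower, with a median of 0.17 and a lowest adjusted p of 0.862. Leaving out wild-type replicate 3 moved that median to -0.06, leaving out klotho-deficient replicate 2 moved it to -0.04, and averaging all probe sets of a gene moved it to -0.01, so the class had no settled direction.

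**Figure D2:**
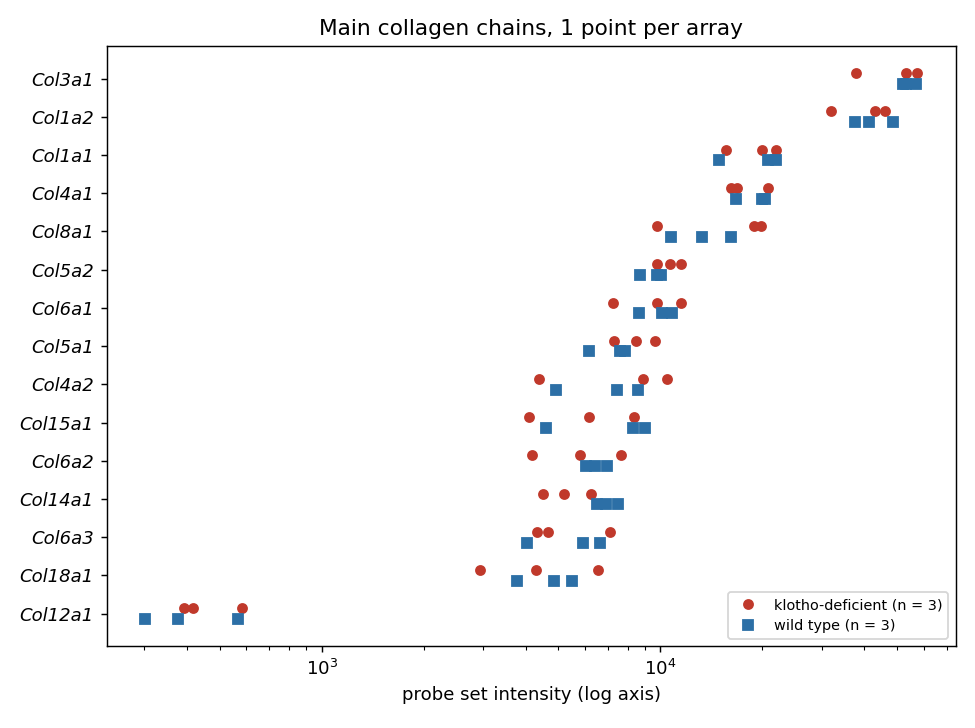
Signal on each of the 6 arrays (log axis) for the 15 main collagen chains, with circles for klotho-deficient and squares for wild-type arrays. The genotypes overlap for every gene but Col14a1; signals of different genes are not comparable, since each probe set has its own brightness.

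Among FACIT chains Col14a1 had the smallest p of all 35 genes. Type XIV collagen binds the surface of type I fibres and limits their fusion. Col14a1 measured 5205, 4497 and 6224 on the klotho-deficient arrays and 6911, 7475 and 6514 on the wild-type arrays. All 3 klotho-deficient values were below all 3 wild-type values, and klotho-deficient replicate 3 and wild-type replicate 3 were the nearest pair. The means were 5309 ± 868 and 6966 ± 483 (SD, n = 3), a difference of -0.40 ± 0.19 with a 95% interval of -0.88 to 0.07. It did not pass in limma (unadjusted p = 0.0832, adjusted p = 0.794, and 0.602 to 0.988 over 15 alternative settings). It was lower under each setting, but groups without overlap keep their sign whichever array is left out. A replicate block, another variance prior, the filter on dim genes and the separate probe set fit cannot change the difference at all. Most of these signs were thus fixed in advance. In addition, 3 arrays against 3 cannot give an exact permutation p below 0.1.

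Col14a1 is covered by 3 probe sets, and all read lower in klotho-deficient roots. The second brightest measured 3057, 3007 and 3082 against 3989, 4041 and 3710, without overlap, a difference of -0.36 ± 0.17. The dimmest measured 2540.4, 2296 and 2811 against 3703, 3670.3 and 2627, a difference of -0.37 ± 0.22, and overlapped because wild-type replicate 3 was low. Fitted over all probe sets, the adjusted p of the 3 were 0.861, 0.837 and 0.866. Col14a1 thus had closely similar differences in its 3 probe sets, although these share the same RNA and are not replicates.

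**Figure D3:**
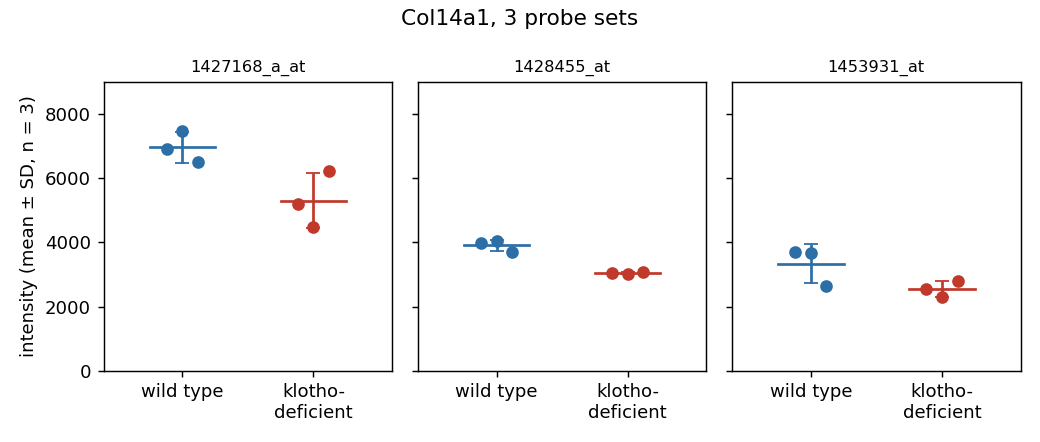
Signals of the 3 Col14a1 probe sets in wild-type (blue) and klotho-deficient (red) roots, with 1 point per array and mean ± SD (n = 3). The klotho-deficient mean is lower in each, and the groups overlap in the dimmest probe set alone.

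The other FACIT genes overlapped between genotypes. Col12a1, a chain found on type I fibres under load, measured 416, 393 and 582 against 301, 566 and 376, a difference of 0.19 ± 0.30. Its 4 probe sets gave -0.11 to 1.22, all at signals of 67 to 582, so they disagree. Col19a1, a minor chain of basement membrane zones, measured 543, 557 and 310 against 646, 698 and 472 (-0.39 ± 0.30). Its lowest arrays were replicate 3 of each genotype, and its other probe sets were also lower. Col16a1, Col20a1 and Col22a1 had differences of 0.15, -0.33 and -0.12, with standard errors of 0.38, 0.55 and 0.40. Of the 6 FACIT genes 4 were lower and 2 higher, with a median of -0.23, which became 0.05 without wild-type replicate 2.

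Type IV chains varied more between arrays of a genotype than between genotypes. Col4a1, which pairs with Col4a2 in the common basement membrane network, measured 20735, 16172 and 16827 in klotho-deficient roots and 20336, 19962 and 16738 in wild type. Col4a2 measured 8865, 4375 and 10475 against 7426, 8596 and 4917. Both were lowest on klotho-deficient replicate 2 and next lowest on wild-type replicate 3, with Col4a1 about as low on klotho-deficient replicate 3, and the differences were -0.09 ± 0.19 and 0.12 ± 0.40; the second Col4a1 probe set gave -0.36. For Col4a2 the difference was 0.50 without klotho-deficient replicate 2, -0.13 without replicate 3 and -0.0055 without replicate 1 of that genotype, and -0.11 when wild-type replicate 3 was left out, so single arrays decide its sign.

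The X-linked chains Col4a5 and Col4a6 had the same 2 low arrays. Col4a5, which joins Col4a3 and Col4a4 in one network and Col4a6 in another, measured 15694, 9973 and 13891 against 14190 (14189.6), 17005 and 9238. Col4a6 measured 7515, 3792 and 7021 (7020.5) against 7569, 7615 and 4536. In both genes klotho-deficient replicate 2 and wild-type replicate 3 stood below the other 4 arrays. The differences were -0.01 ± 0.31 and -0.13 ± 0.36, with 95% intervals of -0.76 to 0.73 for Col4a5 and -1.002 to 0.74 for Col4a6. In the RefSeq annotation the 2 genes lie head to head on the X chromosome, with 1274 bases between their annotated spans. The bases before each start are shown as a description. The same 2 low arrays were not particular to this pair, since 12 of the 29 collagen genes above background had them.
Col4a5, chrX:141475169-141475369, plus strand: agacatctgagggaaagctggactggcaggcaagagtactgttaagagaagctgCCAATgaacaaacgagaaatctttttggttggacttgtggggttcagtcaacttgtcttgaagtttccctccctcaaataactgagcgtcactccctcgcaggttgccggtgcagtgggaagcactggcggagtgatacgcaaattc
Col4a6, chrX:141474096-141474326, minus strand: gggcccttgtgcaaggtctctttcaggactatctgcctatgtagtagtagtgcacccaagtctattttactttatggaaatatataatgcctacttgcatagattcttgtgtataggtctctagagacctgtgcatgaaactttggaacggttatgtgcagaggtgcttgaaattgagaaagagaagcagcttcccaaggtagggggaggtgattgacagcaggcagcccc
Capitals mark the same motifs as above: the Col4a5 stretch held CCAAT and the Col4a6 stretch held none of the motifs. The full windows of 250 bases, which run on into the annotated span of each gene, held GGGCGG or CCGCCC outside the stretches shown.

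Col4a3 and Col4a4, chains of a mature network best known from kidney glomerulus and absent in forms of Alport syndrome, had the largest type IV differences. Col4a3 measured 2192, 1206 and 1041 on the klotho-deficient arrays and 2290.3, 2571 and 1458 on the wild-type arrays. Col4a4 measured 2810 (2809.7), 2288 and 1934 against 2884, 3611 and 2349.8. In these probe sets, the brightest of each gene, the order of the 6 arrays was the same. From the lowest it ran through klotho-deficient replicates 3 and 2, wild-type replicate 3, klotho-deficient replicate 1 and wild-type replicates 1 and 2. This match was noticed after the values were seen and was not tested. None of the other probe sets of the pair had that order. The second Col4a3 probe set, for example, was lowest on klotho-deficient replicate 2 (535).

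Differences were -0.55 ± 0.37 for Col4a3 and -0.33 ± 0.25 for Col4a4, with adjusted p of 0.83 and 0.845. All 5 probe sets of the pair were lower, from -0.33 to -0.68, and in 1 of them, for Col4a4, the groups did not overlap (unadjusted p = 0.0472, adjusted p over all probe sets = 0.835 in limma). Klotho-deficient replicate 1 was within the wild-type range for Col4a3, and without it the difference was -0.87 and the groups did not overlap. They did not overlap without wild-type replicate 3 either (-0.79 for Col4a3 and -0.48 for Col4a4). Of all genes above background, 10.7% were lower without overlap when klotho-deficient replicate 1 was left out. That share was 11.8% when wild-type replicate 3 was left out. With a term for the arrays that lack Y-linked transcripts, klotho-deficient replicates 2 and 3, the differences were 0.10 and -0.05; in that fit the genotypes are compared through klotho-deficient replicate 1 alone. The annotated spans of Col4a3 and Col4a4 overlap by 114 bases on chromosome 1, and those of Col4a1 and Col4a2 by 85 bases on chromosome 8. Of the 6 type IV genes 1 was higher and 5 lower, with a median of -0.11, which was 0.08 without klotho-deficient replicate 2, 0.18 with the Y-linked term and -0.32 when wild-type replicate 3 was left out.

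**Figure D4:**
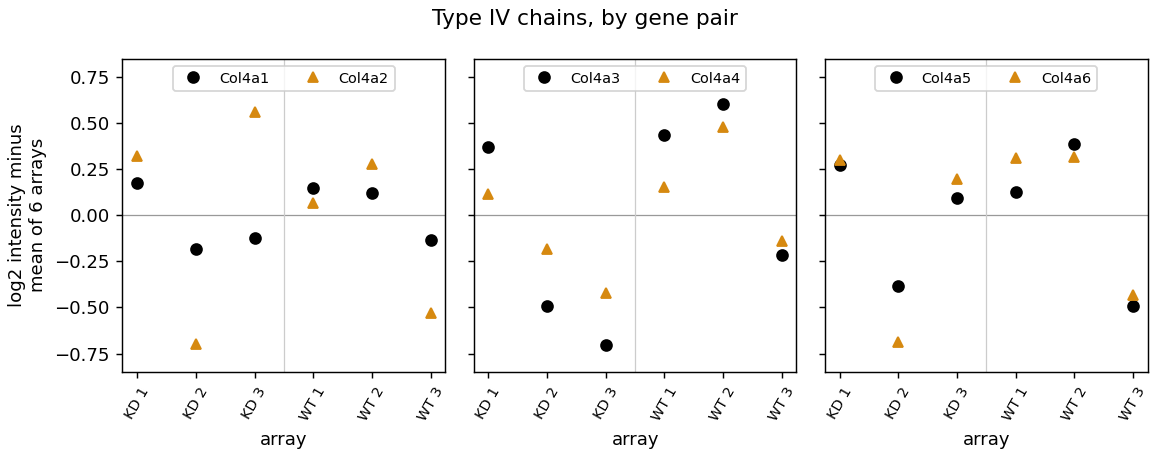
Log2 signal of the 6 type IV chains on each array (KD, klotho-deficient; WT, wild type), as the deviation from that gene's mean over 6 arrays, with the 2 genes of each head-to-head pair in 1 panel. Col4a2, Col4a5 and Col4a6 are low on KD 2 and WT 3, and Col4a1, Col4a3 and Col4a4 on KD 2, KD 3 and WT 3.

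Low signal on the same 2 arrays was common among the collagens. Of the 29 genes above background 12 (41.4%) had their lowest klotho-deficient value on replicate 2 and their lowest wild-type value on replicate 3, and 12.6% of the 13322 genes above background had this pattern. They were Col1a1, Col4a1, Col4a2, Col4a5, Col4a6, Col5a1, Col6a1, Col6a2, Col6a3, Col14a1, Col15a1 and Col18a1. This pair of arrays was picked from the same values. Within each genotype they are the arrays most often lowest among the 29 genes, so the excess over 12.6% is a description and was not tested. Wild-type replicate 3 gave the lowest wild-type value for 20 of the 29 (69.0%, beside 37.4% of all genes above background) and carried the high Gapdh ratio. That array also had the highest summed endothelial signal (63864 against 29988 to 37892 on the others, 8 of 8 genes above background) and mesothelial signal (51981 against 21756 to 36138, 6 of 6). The part of RNA integrity and cell content in the low collagen values was not tested.

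Type VI chains, encoded by Col6a1, Col6a2 and Col6a3, form filaments that tie cells to the surrounding matrix. Col6a1 measured 9744, 7248 and 11467 against 10125, 10850.3 and 8633. Col6a2, its neighbour on chromosome 10, measured 5789, 4179 and 7631 against 6393, 6969 and 6021. Col6a3 measured 4648, 4315 and 7106 against 5928, 6639 and 4037. All were lowest on klotho-deficient replicate 2 and highest on klotho-deficient replicate 3 within that genotype. The klotho-deficient range enclosed the wild-type one for Col6a1 and Col6a2, and for Col6a3 wild-type replicate 3 was the lowest array. Differences were -0.08 ± 0.23, -0.18 ± 0.26 and -0.05 ± 0.30, and without klotho-deficient replicate 2 they were 0.11, 0.04 and 0.09. Col6a3 was also positive without klotho-deficient replicate 1 (0.03), wild-type replicate 1 (0.01) or wild-type replicate 2 (0.09). Col6a4 and Col6a5 had means below background and give no usable fold.

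The multiplexins Col15a1 and Col18a1, proteoglycan collagens of basement membrane zones that release antiangiogenic fragments, followed the type VI order in klotho-deficient roots. Col15a1 measured 6137, 4107 and 8338 against 8985, 8312 and 4590.1. Col18a1 measured 4293, 2935 and 6535 against 4860 (4859.6), 5492 and 3773. Klotho-deficient replicate 2 was the lowest array for both and the groups overlapped. The differences were -0.24 ± 0.38 and -0.10 ± 0.34, and without klotho-deficient replicate 2 they were 0.03 and 0.19. Col18a1 was 0.02 without wild-type replicate 2.

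Type VIII chains, made by vascular smooth muscle and endothelium, differed among the klotho-deficient pools. Col8a1 measured 9786, 18887 and 19764 in klotho-deficient and 13237, 16154 and 10727 in wild-type roots. Klotho-deficient replicate 1 was the lowest of the 6 arrays and replicates 2 and 3 the highest, and the 2 other Col8a1 probe sets had the same low array (1860.0 against 4037 and 4564, and 799 against 2178 and 3059). The difference was 0.22 ± 0.34 with all arrays, 0.55 ± 0.26 without klotho-deficient replicate 1 (adjusted p = 0.86), and -0.43 with the term for arrays lacking Y-linked transcripts.

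Col8a2, the partner chain, did not follow Col8a1. It measured 592, 664 and 1593 against 1079, 1364 and 1273, so klotho-deficient replicates 1 and 2 were below all wild-type arrays and replicate 3 above them. The difference was -0.53 ± 0.40 (adjusted p = 0.845), and it was -0.98 ± 0.20 without klotho-deficient replicate 3 (adjusted p = 0.504). Col8a2 has 1 probe set on the array, so this could not be compared with another.

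The remaining collagens were low or overlapped. Col23a1, a membrane-spanning collagen, measured 1213, 1168 and 1258 against 827, 852 and 1643, so wild-type replicate 3 was the highest array and the difference was 0.21 ± 0.30. Without that array, which lay against the difference, the groups did not overlap and the difference was 0.53 ± 0.17 (adjusted p = 0.866 in limma). With the same array left out, 12.3% of all genes above background were higher without overlap. Col17a1, of epithelial hemidesmosomes, and Col7a1, of anchoring fibrils, had differences of -0.22 ± 0.30 and -0.12 ± 0.40 at signals of 141 to 368. Col13a1 and Col26a1 had mean log2 signals below background.

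Col25a1, a membrane-spanning collagen of neurons, was also below background by that measure, but narrowly. Its brighter probe set measured 81.5, 222 and 306 in klotho-deficient and 103, 164 and 105 in wild-type roots, so klotho-deficient replicates 2 and 3 were the highest arrays and replicate 1 the lowest (0.55 ± 0.52, adjusted p = 0.876). Its second probe set, singled out after its values were seen, measured 193, 298 and 229 against 90.4, 133 and 51.3. There all 3 klotho-deficient arrays were above background and all 3 wild-type arrays below it, at least 1.46-fold higher against the background level. Such a split was searched for in all 71 collagen probe sets and found in this probe set alone. Its share over all probe sets of the array was not computed, so it has no chance level beside it. Fitted over all probe sets in limma it had an unadjusted p of 0.00875 and an adjusted p of 0.744. The mean of both probe sets, which includes the one singled out, gave 1.01 ± 0.40 with overlapping groups (unadjusted p = 0.0443, adjusted p = 0.756 in limma). The brighter probe set gave -0.57 with the term for arrays lacking Y-linked transcripts.

 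Among the 15 genes that are neither fibrillar, type IV nor FACIT, 10 were above background, 2 of them higher and 8 lower, with a median of -0.11. That median was 0.06 without klotho-deficient replicate 2 and -0.25 without klotho-deficient replicate 3, and leaving out wild-type replicate 3 gave -0.20.

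The cartilage collagens, left out by name, had another pattern on the same arrays. Col2a1, the main cartilage fibril chain, measured 242, 2891 and 4226 in klotho-deficient and 193, 418 and 296 in wild-type roots, and Col9a1 911, 2347 and 4279 against 703, 1523 and 613. Klotho-deficient replicates 2 and 3 were the highest arrays and replicate 1 lay within the wild-type range for both. Of the 7 cartilage genes 5 were above background and all 5 were higher, though Col10a1 by 0.05 only, and 0 passed (lowest adjusted p = 0.78 in limma). Col10a1 had another order, highest on klotho-deficient replicate 1 (269) and lowest on replicate 3 (118). Below background, Col9a2 gave 0.90 and Col11a2 -0.26. The Col2a1 interval of -0.34 to 4.97 was far wider than that of Col1a1. The summed chondrocyte marker signal (6 of 8 genes above background, Matn1 and Matn3 below it) was 6577, 14056 and 34541 in klotho-deficient and 9096 to 11259 in wild-type roots. Col8a1 was also highest on klotho-deficient replicates 2 and 3. These are the same 2 arrays on which the Y-linked genes were at background. The part of cartilage-like cells in the Col8a1 signal was not tested and cannot be told apart from that array difference.

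**Figure D5:**
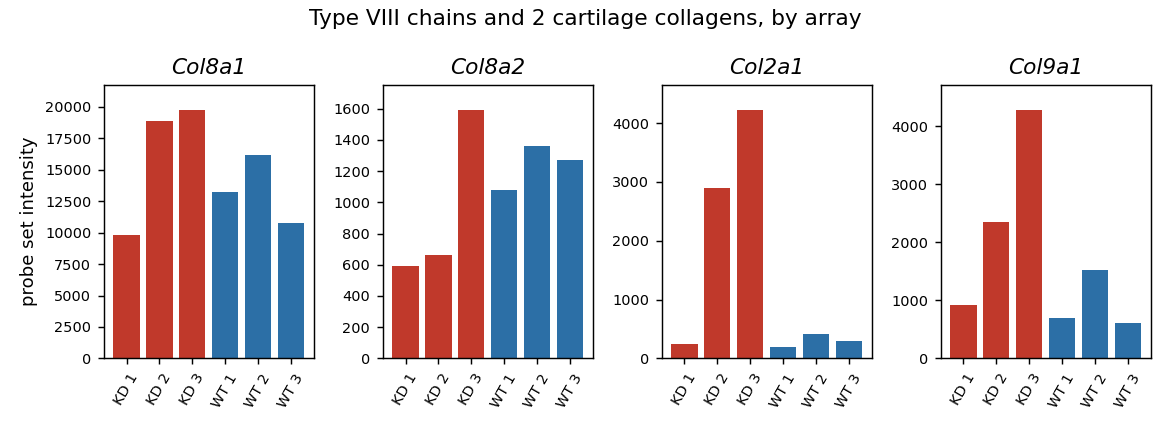
Signals on each array for the type VIII chains Col8a1 and Col8a2 and for 2 cartilage collagens, Col2a1 and Col9a1 (KD, klotho-deficient, red; WT, wild type, blue; each panel has its own axis from 0). Col8a1, Col2a1 and Col9a1 are higher on KD 2 and KD 3 than on KD 1, and Col8a2 is high on KD 3 alone among the klotho-deficient arrays.

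Genes that modify, bind or cut collagen were set beside the chains. In the list for biosynthesis and processing 29 of 33 genes were measured, 7 higher and 22 lower, with a median of -0.11 and 0 past the threshold in limma. The groups did not overlap in 2 higher (P4ha3 and Adamts3) and 4 lower (P4ha1, P4hb, Serpinh1 and Pcolce) of its 28 genes above background, where 6.95% and 7.86% of all genes did so. Among them Pcolce, which enhances removal of the procollagen C-terminal propeptide, measured 9389, 11114 and 12317 against 14559, 14486 and 16305 (-0.47 ± 0.18, adjusted p = 0.77), with all klotho-deficient arrays lower. Serpinh1, the collagen chaperone HSP47, and P4ha1, another subunit of the proline-hydroxylating enzyme, had differences of -0.44 ± 0.16 and -0.71 ± 0.17 (adjusted p = 0.753 and 0.67). P4ha1 measured 1879, 1994.5 and 1939.9 against 3196, 2850.1 and 3509, and for both genes every klotho-deficient array was below every wild-type array. P4ha3, a subunit of prolyl 4-hydroxylase, measured 1135, 2375 and 4180.4 against 987, 1072 and 1005 (1.13 ± 0.47), and its highest arrays were klotho-deficient replicates 2 and 3.

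Receptors and uptake genes had 12 of 13 measured, 7 higher and 5 lower, with 0 past the threshold. Of the 10 above background, 2 (Itga10 and Itga1) were higher without overlap and 0 lower. Among all genes above background 6.95% and 7.86% were so. Itga10 and Itga1 were named for the smallest p of this list, which favours groups that do not overlap. Itga10, the alpha subunit of a collagen-binding integrin typical of chondrocytes, measured 1246, 1145 and 1376 against 662, 854 and 573. Its groups did not overlap and all 3 klotho-deficient pools were higher, at 0.87 ± 0.21 (adjusted p = 0.67). Itga1, of another collagen-binding integrin, measured 3431, 3158 and 3371 against 2623, 2868 and 1936, also without overlap (0.44 ± 0.21, adjusted p = 0.782). Of the collagen-cleaving proteases 12 of 13 were measured, 7 higher and 5 lower, with 0 past the threshold and 0 without overlap. Mmp13, the main interstitial collagenase of mice, measured 199, 283 and 267 against 177, 162 and 208 (0.44 ± 0.22), near background.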

How the data were processed

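The authors deposited intensities on a linear scale for 45101 probe sets, scaled to a common trimmed mean (1500 with 2% cut at each end). RMA is named in the submitters' processing notes; the step that gave a linear scale and the genome build are not given in the sources used here. Values were log2-transformed without a pseudocount or further normalization. In the platform annotation 34945 probe sets name a single gene, in all 18193 genes, each represented by its brightest probe set. Background was the highest of 27 Bacillus control probe sets (161.8), which 13322 genes exceeded on average. The test was limma 3.58.1 (R 4.3.3), as a linear model with moderated variances, two-sided and with Benjamini-Hochberg adjustment over every gene. The threshold was 0.05, with 4 residual and 2.1 prior degrees of freedom. The procedure was tested on simulated data with a common spread for all genes and changes larger than any collagen difference here. That does not measure its power for differences of the size reported. Intervals are at 95%. The members, classes, gene lists and named genes (main chains, and chains above background whose genotypes did not overlap) were chosen with earlier results of these data known; in each pathway list up to 4 genes of smallest p were to be named. Adamts3, P4hb and the per-array values of collagens outside the main chains (such as Col4a3 to Col4a6, Col8a2, Col19a1, Col23a1 and Col27a1) were picked after their values were seen. So was the pair of arrays for which shared low signals were counted. The 3 pools per genotype are the replicates, so p-values measure the spread between pools, and the number of arrays limits precision. Promoter windows came from RefSeq. Alternatives were other normalizations, an offset of 100, a filter on dim genes, another variance prior, mean of probe sets, a replicate block, a Y-linked covariate and each array left out; all probe sets fitted separately was added after the data were seen. Figures used matplotlib 3.10.9 in Python 3.11.15.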

Additional observations from a re-analysis of the deposited data

How the results depend on the processing

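In all alternatives 0 collagen genes passed the threshold in either direction, and 0 of the 225 values computed for the 15 named genes did; 26 of those had the opposite sign to the main value. Correlations of deviations between arrays of the same replicate number were 0.165, -0.0097 and 0.161. Of the klotho-deficient arrays, 2 of 3 correlated best with their own number. So few arrays cannot settle whether the replicate numbers pair them. With a replicate block the counts were again 0 and 0. The median of -0.09 cannot change under it, since each replicate number holds an array of each genotype. Median centring put 1 gene (Col5a2) without overlap in the higher direction and turned Col1a1 to -0.0025. Averaging probe sets gave -0.0072 for the fibrillar median, -0.014 for Col1a1 and -0.0072 for Col5a2. The covariate for arrays without Y-linked transcripts gave 0.13 for Col1a2, 0.082 for Col3a1, 0.13 for Col4a1 and -0.43 for Col8a1. The causes of these changes were not tested.

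Leaving out each array in turn gave 0 to 2 genes without overlap in the higher and 1 to 5 in the lower direction, where fewer arrays alone make overlap rarer (10.2% to 14.7% of all genes above background in the higher and 10.7% to 17.5% in the lower direction). The fibrillar median ran from -0.060 to 0.19 and the FACIT median from -0.41 to 0.047. Differences ran from -0.17 to 0.14 for Col1a1, -0.19 to 0.075 for Col1a2, -0.27 to 0.030 for Col3a1, -0.13 to 0.50 for Col4a2, -0.23 to 0.11 for Col6a1, -0.39 to 0.043 for Col6a2, -0.27 to 0.094 for Col6a3, -0.014 to 0.44 for Col12a1, -0.54 to 0.032 for Col15a1 and -0.39 to 0.19 for Col18a1. No setting turned the sign of Col14a1 or Col5a1. For Col14a1, whose groups did not overlap, most settings could not have turned it. Low signals have no floor, so values below background are unstable.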
